A study of Mus musculus with 622 samples.

Results

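The mid dose of miR-200c-3p was examined in 23 single 2-cell mouse parthenotes, which are 23 of the 622 samples of the series. They were chosen by their sample titles, as all embryos labelled 2-cell, parthenote and mid-dose miR-200 in the miR-200c experiment, and were compared with the 28 control 2-cell parthenotes of that experiment. The study injected microRNAs carried by sperm at several doses and read the transcriptome of single embryos afterwards. Oocytes came from superovulated FVB/NJ females of 5 to 7 weeks, were activated without sperm by SrCl2, EGTA and cytochalasin B, and received about 53 fL of solution in the cytoplasm. Control embryos received GFP only, the low dose (26 embryos) was about 200 molecules of synthetic miR-200c-3p, and the amount behind the mid dose is not stated in the labels. A second experiment supplied 21 2-cell parthenotes injected with another sperm microRNA, miR-465c-3p, and their own 22 controls. All of these were frozen 28 hours after activation, at the late 2-cell stage. Also used below were 23 control parthenotes of the miR-465c experiment at the 4-cell stage. Editing values came from other 2-cell parthenotes, 27 with AGO2 and miR-200c-3p and 23 with AGO2 alone. No embryo carried a paternal genome, so every group models development from the maternal genome only. Eggs of about 5 females were pooled in each experimental replicate and shared out at random among the treatments, with about 8 embryos per group per replicate. The labels give 3 experimental days for each group used from the miR-200c experiment. The replicate of a given embryo is not labelled. The p-values therefore measure the spread between embryos that partly share a day and a pool of mothers. The spread between days is not measured.

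MicroRNAs act inside Argonaute proteins. Bases 2 to 8 of the microRNA, the seed, pair with matching sites in the 3' UTR of an mRNA, which then recruits deadenylation and decay factors. The miR-200 family is best known for repressing the transcription factors Zeb1 and Zeb2 in epithelial cells. In the 2-cell mouse embryo, transcripts stored by the oocyte are being cleared while the embryo's own genome is switched on, and genes for making ribosomes and proteins are among those that the new genome transcribes in quantity.

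The mature sequences show what was injected and which relatives share its targets. They are given 5' to 3' from RefSeq on GRCm38.p6, the build also called mm10, with the seed in capitals. The first 3 share 1 seed, the next pair differs from it inside the seed, and miR-465c-3p has an unrelated one.
miR-200c-3p: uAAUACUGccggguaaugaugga
miR-200b-3p: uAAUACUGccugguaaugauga
miR-429-3p: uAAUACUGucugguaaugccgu
miR-200a-3p: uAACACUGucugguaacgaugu
miR-141-3p: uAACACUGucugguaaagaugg
miR-465c-3p: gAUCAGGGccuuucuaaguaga
The mouse miR-200c-3p gene lies at chr6:124718324-124718346 on the minus strand, beside that of miR-141-3p. A full match to the miR-200c-3p seed followed by an A, the strongest kind of site (8mer), reads CAGTATTA in a transcript. The same match without the A (7mer-m8) reads CAGTATT, and the match to bases 2 to 7 followed by an A (7mer-A1) reads AGTATTA.

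Sequencing measured poly(A) RNA of whole embryos by SMART-Seq, and the deposited values are expected counts per gene. Totals per embryo ran from 1174137 to 3922928 in controls (median 2520326) and from 404357 to 4126108 at the mid dose (median 2572344), and only mid-dose replicate 4 lay below 1000000. Neither the total nor the number of genes with a count differed between the groups beyond the spread of embryos (permutation test with 100000 resamples, two-sided, p = 0.872 and 0.755, Benjamini-Hochberg adjusted 0.872 for both). Counts were more concentrated at the mid dose, as shown by the percentage that the 10 top genes of an embryo held. It was 7.90 ± 1.37% (SD, n = 28) in controls and 9.65 ± 2.09% (n = 23) at the mid dose, above the control median in 19 of 23 embryos (p = 0.00112, adjusted 0.00336 over 3 measures). The 10 genes that most often made up this share included the stored transcripts Spin1, Tcl1, Omt2b and Btg4, and the ribosomal RNA precursor entry Rn45s. Markers of oocyte and embryo (Zp3, Gdf9, Ooep, Nlrp5, Dppa3, Oas1d) had a count in all 51 embryos. Of 25 genes of cumulus and granulosa cells, the somatic cells around the egg, 17 averaged below 1 CPM (counts per 1000000 of an embryo's total) in both groups, and Fshr, Amh and Inhba were at 0 in every embryo. The whole list summed to 0.00336 to 0.0346% of counts in controls and to 0.00129 to 0.0311% at the mid dose, with medians of 0.0145% and 0.00861%. Of 29 genes known to be expressed from the paternal copy, 16 averaged below 1 CPM in both groups, but Mest had a count in every embryo, with medians of 107 and 132 CPM.

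At the mid dose most transcripts of the ribosome had negative log2 fold changes and most of those stored by the oocyte positive ones, while no single gene passed edgeR's quasi-likelihood test. Of 11202 genes tested, 0 had a Benjamini-Hochberg adjusted p under 0.05, and the smallest was 0.0754. Without adjustment, 1857 genes (16.6%) had p under 0.05, 839 of them higher (7.49%) and 1018 lower (9.09%) at the mid dose. The median log2 fold change of all genes was 0.04, and 53.2% of genes had a positive one. DESeq2 on the same embryos called 411 of the 4925 genes that it adjusted (8.35%), 148 higher (3.01%) and 263 lower (5.34%). Each of the 411 also had p under 0.05 and the same direction in edgeR. Without mid-dose replicate 26, which stood at 1 end of many measures, DESeq2 called 134 of 3057 genes (4.38%), 47 higher (1.54%) and 87 lower (2.85%), and edgeR 0. Below, members of a list with p under 0.05 are counted without adjustment, to be read against the shares of all genes given here, and only DESeq2's adjusted calls are described as called.

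Cytosolic ribosomal proteins, the protein subunits of the ribosome, were the list farthest from the rest. All 78 genes had a negative log2 fold change at the mid dose (46.8% of all genes did), and 68 of 78 had p under 0.05 on the lower side (9.09% of all genes did). Their log2 fold changes ran from -1.19 to -0.12, with a median of -0.69. DESeq2 called 30 of the 78 lower and 0 higher, and 12 lower without mid-dose replicate 26. Together these genes held 0.285% of an embryo's counts in the lowest control, 0.852% in the median and 2.55% in the highest. At the mid dose they held 0.0624%, 0.57% and 1.32%. The groups overlapped widely, with 17 of 23 mid-dose embryos below the control median and 6 above it. In low-dose embryos the median share was 0.955%. The summed cumulus and granulosa markers moved with this list, since they too lay below the control median in 17 of 23 mid-dose embryos, and their part in the result was not tested. Ribosomal protein genes have many near-identical pseudogene copies, and how the authors' counting divided reads among them is not given in the sources used here. These values are shares of a library from a whole embryo, so less RNA of 1 kind and more of the rest cannot be told apart, and neither can fewer cells and less RNA per cell.

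**Figure D1:**
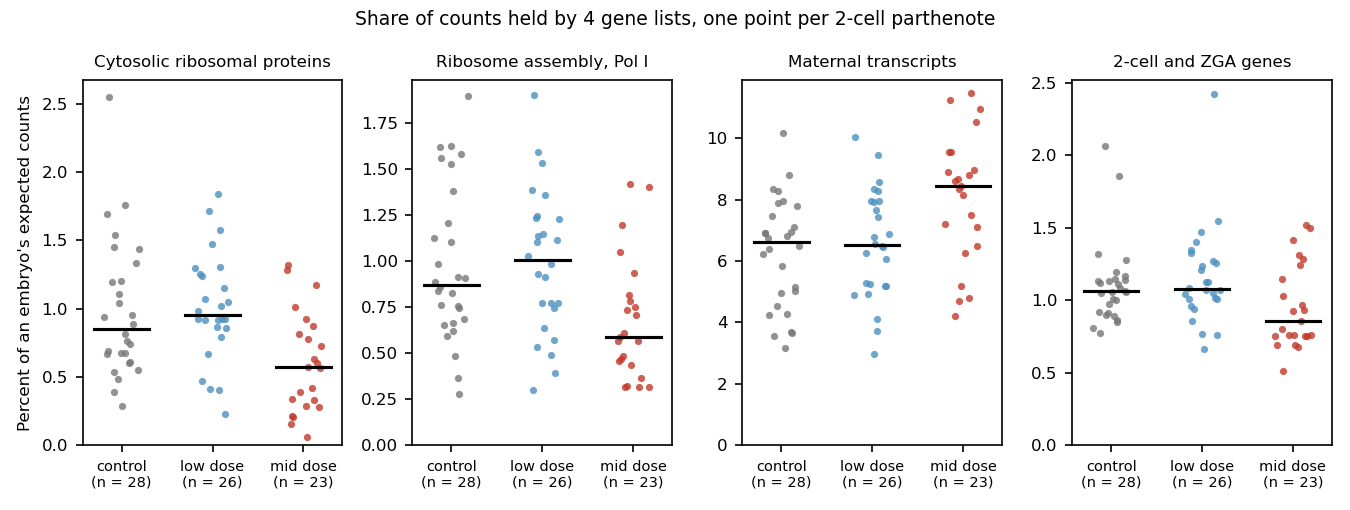
Percent of each embryo's expected counts (y axis) in 4 gene lists, for control, low-dose and mid-dose 2-cell parthenotes (x axis). Points are embryos and black lines are medians. Mid-dose medians lie below the control medians for ribosomal proteins (0.57% against 0.852%), ribosome assembly factors and 2-cell genes, and above for maternal transcripts (8.44% against 6.62%), with wide overlap.

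Rps29, a small-subunit protein encoded at chr12:69157722-69159186, was at 12.1, 79.2 and 385 CPM in the lowest, median and highest control and at 0.969, 48.8 and 136 CPM at the mid dose. Its log2 fold change was -0.98 ± 0.26 (SE; edgeR adjusted p = 0.165, DESeq2 adjusted p = 0.0304). In 19 of 23 mid-dose embryos it lay below the control median. Rps3, another small-subunit protein, ran through 26.2, 129.8 and 363 CPM in controls and 4.85, 76.0 and 229.6 CPM at the mid dose. It was below the control median in 21 of 23 embryos, with a log2 fold change of -0.96 ± 0.27. Rps16 and Rps24 had log2 fold changes of -0.75 ± 0.21 and -0.86 ± 0.24, and Rpl17, of the large subunit, -0.65 ± 0.19. DESeq2 called all 5 lower with mid-dose replicate 26 included, and 12 of the 78 ribosomal proteins without it. Genes of both ribosomal subunits are thus among those called.

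Factors that transcribe ribosomal RNA or assemble ribosomes lay on the same side. Of 58 genes, 53 had a negative log2 fold change and 30 had p under 0.05 on the lower side, 0 on the higher, with a median of -0.56. DESeq2 called 11 lower and 0 higher, and 2 lower without mid-dose replicate 26. The list held a median of 0.87% of counts in controls (range 0.277 to 1.89%) and 0.585% at the mid dose (0.313 to 1.41%), below the control median in 18 of 23 embryos. Gnl3, the nucleolar GTPase nucleostemin, went from a median of 46.2 CPM (range 22.4 to 153) in controls to 32.8 CPM (10.5 to 99.6), a log2 fold change of -0.75 ± 0.23. Utp3, part of the machine that processes the small subunit, went from 123.2 CPM (24.8 to 377) to 55.7 CPM (12.6 to 266), -0.86 ± 0.27. Eif6, which keeps new large subunits from joining too early, had a log2 fold change of -0.69 ± 0.22, and Nop10, of the box H/ACA particles that modify ribosomal RNA, -0.61 ± 0.20. DESeq2 called all 4 lower, and edgeR's adjusted p was 0.165 to 0.175.

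Other gene groups of protein production and energy supply were less uniform. Translation initiation and elongation factors had 36 negative log2 fold changes of 48, 17 with p under 0.05 on the lower side and 4 on the higher, and a median of -0.25. Eif4a3, the helicase of the exon junction complex, was at a median of 366 CPM in controls and 194 CPM at the mid dose (-0.60 ± 0.20, called by DESeq2). The elongation factor Eef2 was at 361 and 274 CPM (-0.46 ± 0.17), and its call by DESeq2 was lost without mid-dose replicate 26 (adjusted p = 0.0651). Proteasome subunits were divided, with a median of -0.28, 11 of 42 lower and 3 higher at p under 0.05. Psmb5, a catalytic subunit, was at 50.9 and 13.2 CPM (-1.38 ± 0.43), whereas Psmb3 and Psma7, also of the core, had log2 fold changes of 0.68 ± 0.23 and 0.68 ± 0.25. Oxidative phosphorylation genes had a median of -0.22, with 11 of 73 lower and 1 higher at p under 0.05. Their summed share had a median of 0.389% in both groups, with 12 of 23 mid-dose embryos above the control median. Mitochondrial ribosomal proteins had a median of -0.12, with 10 of 72 lower and 3 higher. In DESeq2, 15 of 77 mitochondrial ribosomal proteins were lower and 3 higher at unadjusted p under 0.05, against 7.61% and 4.81% of all genes. Their summed share was below the control median in 17 of 23 mid-dose embryos (medians 0.226% and 0.199%). DESeq2 called 3 of them lower, and 0 without mid-dose replicate 26. One of the 3 was Mrpl34, at 46.9 CPM in the median control and 21.7 CPM at the mid dose (-1.16 ± 0.33), to which DESeq2 gave no adjusted p without that embryo.

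**Figure D2:**
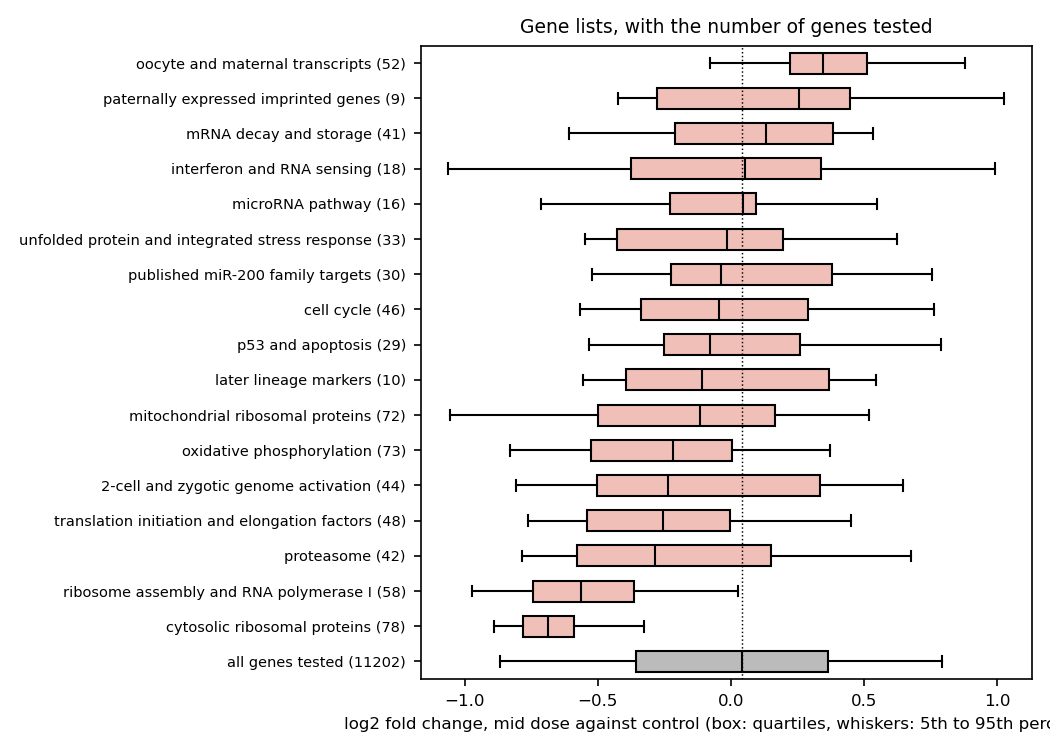
Distribution of log2 fold changes, mid dose against control (x axis), over the tested members of each gene list (y axis, number of genes in parentheses). Boxes are quartiles with the median, whiskers reach the 5th and 95th percentile, the grey box is all 11202 genes tested and the dotted line is their median of 0.04. The boxes of cytosolic ribosomal proteins and of ribosome assembly lie wholly below 0 and that of maternal transcripts wholly above.

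Transcripts stored by the oocyte lay on the opposite side. Of 52 genes, 47 had a positive log2 fold change (53.2% of all genes did), 18 had p under 0.05 on the higher side (7.49% of all genes did) and 1 on the lower, with a median of 0.35. DESeq2 called 9 higher and 0 lower, and 1 higher without mid-dose replicate 26. The list held 3.15% of counts in the lowest control, 6.62% in the median and 10.2% in the highest, against 4.2%, 8.44% and 11.5% at the mid dose, and 17 of 23 mid-dose embryos were above the control median. Spin1, a chromatin reader of the oocyte encoded at chr13:51097934-51152562, was at 2373, 11134 and 16806 CPM in the lowest, median and highest control and at 6362, 15915 and 31129 CPM at the mid dose (log2 fold change 0.66 ± 0.19, called by DESeq2). Bcl2l10, a survival factor of the egg, was at a median of 823 CPM (199 to 2067) in controls and 1307 CPM (357 to 5195) at the mid dose (0.89 ± 0.25), and its call by DESeq2 was lost without mid-dose replicate 26 (adjusted p = 0.0583). Both were above the control median in most mid-dose embryos, 17 and 18 of 23. The member with p under 0.05 on the lower side was Zp3, a protein of the egg coat, with a log2 fold change of -0.62 ± 0.24 (named after its value was seen).

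H1foo, the linker histone of the oocyte, and Oas1d, an oocyte member of the oligoadenylate synthetase family, were the stored transcripts with the largest differences. H1foo was at 46.6, 158 and 383 CPM in the lowest, median and highest control and at 112, 221 and 1748 CPM at the mid dose. Its log2 fold change of 1.06 ± 0.26 became 0.61 without mid-dose replicate 26. Oas1d was at 249.6, 617 and 1729.7 CPM in controls and at 345, 1111 and 6366 CPM at the mid dose, and its log2 fold change of 0.99 ± 0.25 became 0.63. DESeq2's call of either gene was lost without that embryo (adjusted p = 0.0624 and 0.0583), so 1 embryo decided these calls. Oas1d has close paralogs with which it could share reads.

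The percentage held by the 10 top genes moved with these lists, and 4 of the genes that most often made it up are in the maternal list. With that percentage as a covariate of the edgeR fit, the median log2 fold change of the ribosomal proteins was -0.39 in place of -0.69, with 3 positive members of 78 and 11 with p under 0.05. The median was -0.18 in place of -0.56 for ribosome assembly and 0.05 in place of 0.35 for maternal transcripts, of which 30 of 52 were positive. For genes of genome activation and the 2-cell stage the median hardly changed, -0.24 in place of -0.23. Of these, 11 of 44 were positive, with 1 lower and 0 higher at p under 0.05. Over all genes 2.08% had p under 0.05 in that fit, against 16.6% without the covariate. The percentage and the dose are related, so their parts cannot be told apart in full.

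Genes of zygotic genome activation and the 2-cell stage were divided, with more members on the lower side. Of 44, 28 had a negative log2 fold change, 10 had p under 0.05 on the lower side and 5 on the higher, and the median was -0.23. DESeq2 called 3 lower. Dppa2, an activator of 2-cell genes, was at a median of 235 CPM (98.6 to 1007) in controls and 157 CPM (69.8 to 590.3) at the mid dose (-0.68 ± 0.22). The vitamin B6 kinase gene Pdxk was at 748 and 304 CPM (-0.87 ± 0.32), and Pramef25, of a large gene family with similar copies, at 426 and 259.6 CPM (-0.77 ± 0.28). These are the 3 called, of which Pramef25 was still called without mid-dose replicate 26 (adjusted p = 0.0499). When edgeR was fitted with the number bands described below, it called 0 members lower (0.848% of all genes) and 1 higher (1.29%). In that fit 30 of 44 were negative, with a median of -0.33. At p under 0.05, 13 were lower and 3 higher, against 1349 and 1279 of all 11202 genes. With the embryo number as a block, also described below, 32 of 44 were negative and the median was -0.61. Here 17 were lower and 3 higher at p under 0.05 (1465 and 1100 of all 10100 genes). The block fit called 2 lower and 1 higher, against 230 and 180 of all 10100 genes. Klf17, a transcription factor of the late 2-cell embryo, was on the other side, at 1457 CPM in the median control and 1753 CPM at the mid dose (0.38 ± 0.14, DESeq2 adjusted p = 0.0661). The summed share of the list was 0.775 to 2.06% in controls (median 1.06%) and 0.514 to 1.52% at the mid dose (median 0.855%), below the control median in 16 of 23 embryos.

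Genes of mRNA decay and storage had members on both sides, 5 higher and 5 lower of 41 with p under 0.05, and a median of 0.13. Lsm14a, a protein of storage granules, went from a median of 230.3 to 373 CPM (0.62 ± 0.19), and Dcp1a, of the decapping complex, from 379 to 492 CPM (0.63 ± 0.20). Ythdf2, a reader of N6-methyladenosine that takes part in clearing maternal mRNA, went from 476 to 274 CPM (-0.61 ± 0.20). DESeq2 called all 3, but without mid-dose replicate 26 only Lsm14a (adjusted p = 0.0499, against 0.0718 for Dcp1a and 0.0554 for Ythdf2). Btg4, the adaptor that brings the deadenylase to maternal mRNA, was at 3646 and 4375 CPM (0.46 ± 0.19) and was not called.

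The microRNA machinery itself gave no call in edgeR or DESeq2, with 1 of 16 genes at p under 0.05 and a median of 0.04. Ago2, the Argonaute that can slice targets, was at 27.5 to 108 CPM in controls (median 50.9) and at 22.3 to 91.2 CPM at the mid dose (median 46.3), with a log2 fold change of -0.19 ± 0.19. Ago4 had -0.95 ± 0.54, Ago1 0.99 ± 0.78 and Ago3 0.13 ± 0.29. Among the partner proteins that link Argonaute to deadenylation, Tnrc6a had 0.05 ± 0.41, Tnrc6b 0.04 ± 0.16 and Tnrc6c 0.05 ± 0.21. Dicer1, Drosha and Dgcr8, which process microRNA precursors, had -0.05 ± 0.20, -0.09 ± 0.18 and -0.39 ± 0.27. Lin28a, which blocks maturation of let-7 microRNAs, was the member with p under 0.05, at a median of 109 CPM in controls and 153 CPM at the mid dose (0.55 ± 0.20, DESeq2 adjusted p = 0.061). It was called when edgeR took bands of embryo numbers, described below, as a factor (adjusted p = 0.042).

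Genes of the responses to injected RNA or to injury had medians near 0 in edgeR. Over all genes 7.49% were higher and 9.09% lower at p under 0.05. Interferon and RNA sensing genes had 2 of 18 higher and 0 lower at p under 0.05 (median 0.05), with the RNA sensor Ddx58 at 17.7 and 38.3 CPM (0.99 ± 0.46). Genes of p53 and apoptosis had 3 higher and 1 lower of 29 (median -0.08), among them the killer gene Bik at 9.54 and 22.1 CPM (0.89 ± 0.35). Genes of the unfolded protein and integrated stress responses had 1 higher and 4 lower of 33 (median -0.01), with the chaperone Hspa5 at 499.7 and 315 CPM (-0.43 ± 0.19). In DESeq2 the last of these lists had 7 of 38 lower and 0 higher at unadjusted p under 0.05. Over all genes DESeq2 had 7.61% lower and 4.81% higher. Its summed share was below the control median in 17 of 23 mid-dose embryos (medians 0.57% and 0.472%). DESeq2 called none of the tested members of these 3 lists. Cell cycle genes had 8 higher and 5 lower of 46 (median -0.04). Fbxo43, which holds the egg in meiotic arrest, was at 69.8 and 146 CPM (0.88 ± 0.33), and the phosphatase Cdc25c at 219 and 115 CPM (-0.65 ± 0.25), neither called. The remaining lists were thinly measured: 9 of 29 paternally expressed imprinted genes, 3 of 25 cumulus genes, 2 of 9 blood genes and 10 of 21 later lineage genes were tested, with 0, 0, 0 and 1 higher and 1, 0, 0 and 1 lower at p under 0.05.

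Outside the lists, the genes with the smallest p had varied roles. Vta1, a subunit of the membrane-sorting ESCRT machinery at chr10:14654760-14705542, was at 9.69, 53.1 and 165 CPM in the lowest, median and highest control and at 19.3, 116 and 415 CPM at the mid dose. Its log2 fold change was 1.14 ± 0.26 (edgeR adjusted p = 0.142, DESeq2 0.0304), and 21 of 23 mid-dose embryos were above the control median. Gtpbp1, a GTP-binding protein, was at 16.1, 40.2 and 102 CPM in controls and 42.5, 79.1 and 146 CPM at the mid dose (0.81 ± 0.19). All 23 mid-dose embryos were above the control median, although the ranges overlapped. Bpgm, which makes bisphosphoglycerate, was at a median of 568 and 959.6 CPM (0.86 ± 0.20). Stbd1, which binds glycogen (1.15 ± 0.30), and Cenpo, of the kinetochore (0.80 ± 0.21), lay on the same side. DESeq2 called all 5 higher, and edgeR none. These calls include mid-dose replicate 26, without which DESeq2 called 47 genes higher in place of 148. Values of these 5 without it are not given here.

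On the lower side, Slc25a3, the phosphate carrier of mitochondria, was at 14.1, 145 and 815 CPM in the lowest, median and highest control and at 18.2, 61.5 and 453 CPM at the mid dose. Its log2 fold change was -1.17 ± 0.30, with 20 of 23 mid-dose embryos below the control median. Got1, the cytosolic aspartate aminotransferase, was at a median of 57.4 and 35.5 CPM (-1.02 ± 0.26), and Slc25a44, a mitochondrial amino acid carrier, at 419 and 208 CPM (-0.77 ± 0.21). Rpa2, which coats single-stranded DNA, was at 182 and 88.1 CPM (-0.93 ± 0.25), and Ddx18, a nucleolar helicase of ribosome assembly, at 139 and 84.1 CPM (-0.69 ± 0.20). These 5 were called lower by DESeq2, and for each the mid-dose and control ranges overlapped. The calls include mid-dose replicate 26, without which DESeq2 called 87 genes lower in place of 263. Values of these 5 without it are not given here. Pds5b, a cohesin regulator, had -1.03 ± 0.28 and no adjusted p in DESeq2.

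**Figure D3:**
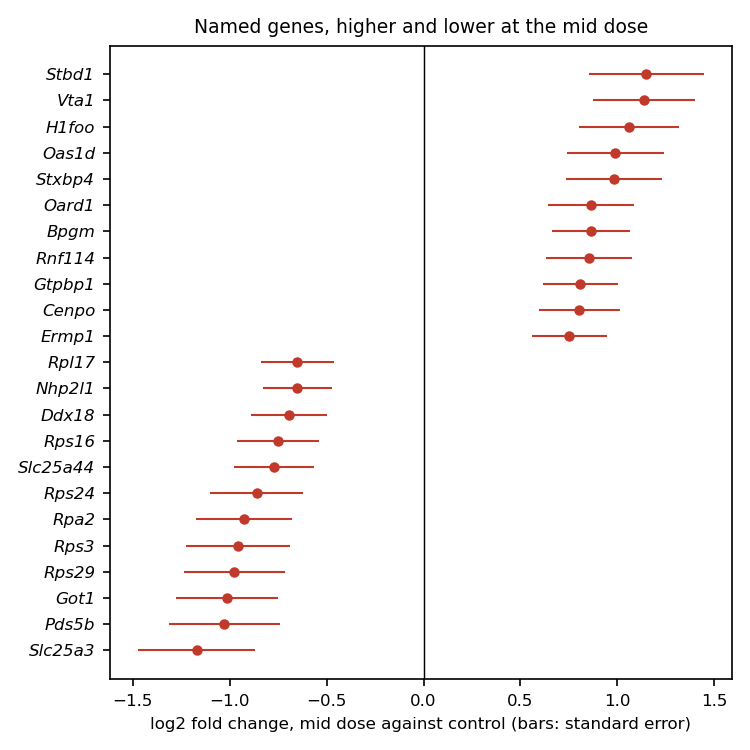
log2 fold change, mid dose against control, with its standard error (x axis) for named genes with the smallest p on each side (y axis) that met the level conditions. Values run from -1.17 (Slc25a3) to 1.15 (Stbd1), and 5 of the 12 on the lower side are ribosomal proteins.

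Embryo numbers in the titles showed a trend of their own. In control embryos numbered 1 to 8 the ribosomal proteins held a median of 1.39% of counts (8 embryos), against 0.889% in numbers 9 to 16 (5 embryos), 0.688% in 17 to 24 (7) and 0.641% from 25 on (8). At the mid dose the medians were 0.628% (7 embryos), 0.388% (7), 0.566% (8) and 0.0624% (1 embryo, replicate 26). Within each band of numbers the mid-dose median was therefore below that of its controls. For maternal transcripts the control medians were 4.75%, 6.48%, 6.92% and 7.28%, and the mid-dose medians 8.44%, 8.88%, 8.24% and 11.5%, above the controls of each band. Fitted by edgeR within 1 band, the median log2 fold change of ribosomal proteins was -0.97, -0.45 and -0.69 in numbers 1 to 8, 9 to 16 and 17 to 24, and that of maternal transcripts 0.58, 0.62 and 0.04. The band from 25 on holds 1 mid-dose embryo and was not fitted alone. With the bands as a factor edgeR called 239 genes (2.13%), 144 higher (1.29%) and 95 lower (0.848%), including 15 ribosomal proteins lower and 9 maternal transcripts higher, but 1 gene when replicate 26 was also left out. What the numbers stand for is not given in the labels.

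**Figure D4:**
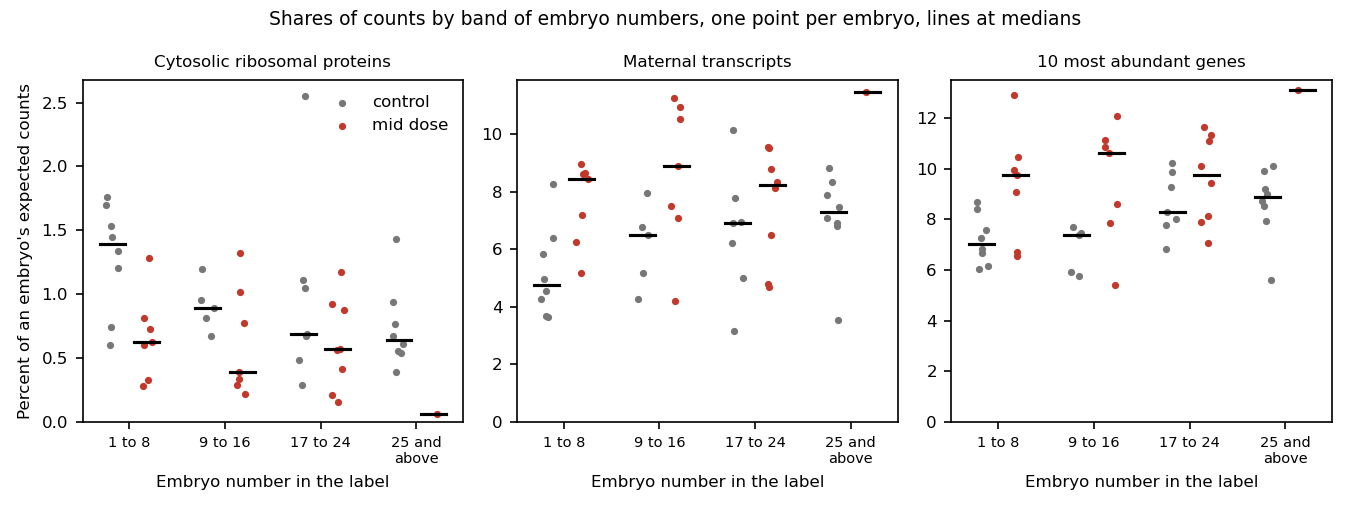
Percent of each embryo's expected counts (y axis) in ribosomal proteins, in maternal transcripts and in the 10 top genes of the embryo, by band of embryo numbers (x axis), in control (grey) and mid-dose (red) embryos. Points are embryos and lines are medians. Control medians for ribosomal proteins go from 1.39% in the first band to 0.641% in the last, and each mid-dose median lies below that of its band.

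Mid-dose replicate 26 stood at the end of the mid-dose range for both lists, with 0.0624% of counts in ribosomal proteins, the lowest of 23, and 11.5% in maternal transcripts, the highest. Its total of 4126108 was also the highest of the group, as was the 13.1% of counts held by its 10 top genes, whereas its 10118 genes with a count ranked 3 from the lowest. Without it the ribosomal proteins had 78 negative log2 fold changes of 78, with a median of -0.64 and 61 at p under 0.05 (8.02% of all genes were lower at that level). Maternal transcripts had 47 positive of 52, with a median of 0.31 and 16 higher at p under 0.05 (5.2% of all genes). The percentage held by the 10 top genes still differed (9.49 ± 1.99%, n = 22, adjusted permutation p = 0.00498).

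Against the low dose the mid dose differed in the same lists. This comparison shares the mid-dose embryos with the one above but not the controls. It gave 0 calls in edgeR (smallest adjusted p 0.144), 1715 genes with unadjusted p under 0.05 (15.3%; 6.58% higher and 8.73% lower) and 330 calls in DESeq2. All 78 ribosomal protein genes again had a negative log2 fold change, 64 with p under 0.05, and the median was -0.73. Ribosome assembly had 53 negative of 58 and a median of -0.57, and maternal transcripts 44 positive of 52 and a median of 0.27. The low dose against control had medians of 0.04, 0.04 and 0.08 for these lists, with 0 ribosomal proteins at p under 0.05 in either direction. Rps29, for example, was at 22.3 to 203 CPM at the low dose with a median of 87.5, near the control median of 79.2, and Spin1 at 3568 to 17928 CPM with a median of 9103.

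Compared with the other microRNA at the same stage, the ribosomal proteins lay on opposite sides. In the miR-465c experiment 75 of the 78 genes had a positive log2 fold change (median 0.29), with 1 at p under 0.05 (2.42% of all genes were higher at that level). The difference of the 2 effects was tested gene by gene as an interaction, with 0 calls of 12339 in edgeR (smallest adjusted p 0.11, 875 genes with unadjusted p under 0.05, 7.09%) and 3 in DESeq2. Of the ribosomal proteins, 77 of 78 had a more negative effect at the mid dose, 63 with p under 0.05 (5.02% of all genes on that side), and the median difference was -0.97. Ribosome assembly factors had a median difference of -0.64 with 21 of 58 at p under 0.05, and maternal transcripts 0.29 with 6 of 52 on the higher side (2.07% of all genes). The experiments were separate, and the dose of miR-465c-3p at this stage is not stated.

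Transcripts with sites for miR-200c-3p had medians close to that of transcripts with none. Among 10790 tested genes with a RefSeq 3' UTR, 412 (3.82%) held an 8mer, 1176 (10.9%) a 7mer-m8 and 500 (4.63%) a 7mer-A1 as their best site, searched on the transcript strand of the longest 3' UTR. The 7-letter motifs lie inside the 8mer, so each gene was counted once, by its best class. Over all 18829 genes with a 3' UTR the classes take 3.13%, 9.2% and 4.18%. The median log2 fold change was 0.06 for 8mer genes, 0.06 for 7mer-m8 and 0.09 for 7mer-A1, against 0.03 for the 8702 genes with no site. On the lower side at p under 0.05 were 8.74% of 8mer genes, 6.29% of 7mer-m8, 7.8% of 7mer-A1 and 9.64% of genes with none. Genes with sites had longer 3' UTRs, with a median of 2342 bases for 8mer genes and 799 for genes with none. Among 3' UTRs of 1500 to 3000 bases the medians were 0.09, 0.05, 0.05 and 0.07 in the same order. There 8.48%, 7.59%, 9.5% and 7.25% were on the lower side at p under 0.05, so genes with none had the smallest share. On the higher side were 6.67%, 7.36%, 10.6% and 8.33%. Genes with 3 or more sites had a median of 0.08 (119 genes). Sites of the microRNA that these embryos did not receive, miR-465c-3p, gave 0.12 for 8mer genes and 0.03 for those with none.

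**Figure D5:**
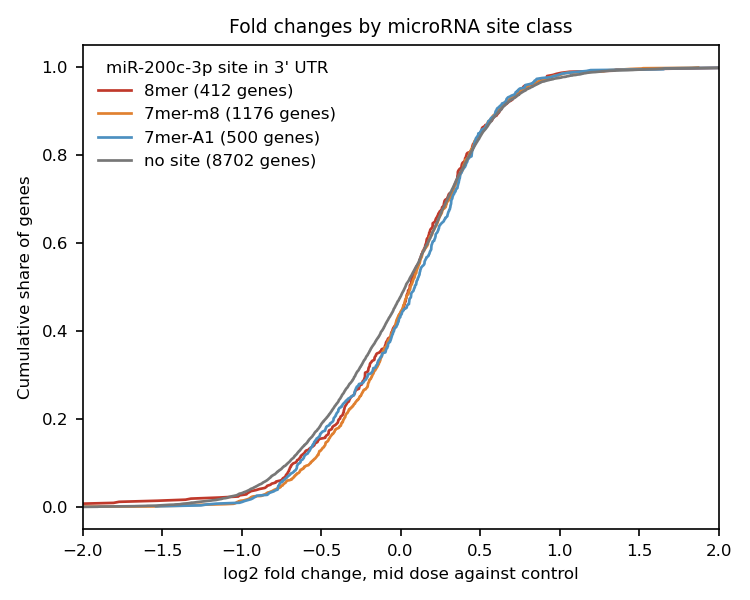
Cumulative share of genes (y axis) by log2 fold change, mid dose against control (x axis, cut at -2 and 2), for genes whose 3' UTR holds an 8mer, 7mer-m8 or 7mer-A1 site for miR-200c-3p or none. The 4 curves lie close together, with medians of 0.06, 0.06, 0.09 and 0.03, and the curves of genes with sites are not shifted to the left.

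Published targets of the miR-200 family gave no call in either tool, and of 30 tested genes 3 were higher and 0 lower at p under 0.05, with a median of -0.04. Tubb3, a neuronal tubulin, was at a median of 278 CPM in controls and 311 CPM at the mid dose (0.55 ± 0.20), the Notch ligand Jag1 at 23.7 and 40.7 CPM (0.75 ± 0.30), and the DNA methyltransferase Dnmt3a at 145 and 201 CPM (0.39 ± 0.18). Zeb1 was at 0 to 12.2 CPM in controls (median 3.74, a count in 20 of 28 embryos) and at 0 to 33.9 CPM at the mid dose (median 4.85, 17 of 23), so its difference could not be measured closely. Zeb2 had a count in 3 of 28 controls and 2 of 23 mid-dose embryos and was not tested. The best-known target was thus all but unmeasured in these embryos. Its 3' UTR holds 7 sites, of which the 4 8mers are shown with 10 bases before and 8 after, the site in capitals, all on the minus strand of GRCm38.p6 in the 3' UTR exon:
Zeb2 chr2:44988108-44988115: tacagtgcatCAGTATTAcgattcct
Zeb2 chr2:44987746-44987753: gcacccgtgtCAGTATTAgacgacta
Zeb2 chr2:44987661-44987668: ttaattttgtCAGTATTAcaccaaac
Zeb2 chr2:44987527-44987534: ctgtagtgtaCAGTATTAtagttctt

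Transcripts with the same 8 letters lay at both ends of the fold changes, as the 8mers of 6 genes show, the first 3 from the lowest and the last 3 from the highest log2 fold changes of the class.
Acvr2a chr2:48901341-48901348, plus strand: aacaaatagcCAGTATTAtgttatat
Crtap chr9:114375188-114375195, minus strand: gaagaaaaatCAGTATTAttttttaa
Pkd1 chr17:24595621-24595628, plus strand: ggacaccactCAGTATTAccttctgc
C87499 chr4:88627388-88627395, minus strand: tgtggtttgaCAGTATTAcaagaggc
Cdh20 chr1:104995338-104995345, plus strand: tgaacaaaatCAGTATTAtagagaag
Gab2 chr7:97306823-97306830, plus strand: ttgcactgagCAGTATTAcaaggtac
The activin receptor Acvr2a was at a median of 15.1 CPM in controls (0 to 67.7) and 4.93 CPM at the mid dose (0 to 31.9), a log2 fold change of -0.94 ± 0.52. Crtap, of collagen modification, had -1.14 ± 0.50, and Pkd1, the polycystin gene, -1.02 ± 0.46. C87499 was at 155 CPM (19.8 to 447) and 261 CPM (63.2 to 743), with 0.92 ± 0.25, and was called by DESeq2 (adjusted p = 0.0317). The cadherin Cdh20 had 0.96 ± 0.44 and the signalling adaptor Gab2 0.92 ± 0.39. Since these genes were picked for their fold changes, their values describe the ends of the class and nothing more.

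A second readout of miR-200c-3p at this stage came from other embryos, in which AGO2 fused to an RNA editor marked the transcripts it bound. In the deposited editing values of 3' UTRs, whose unit the authors call EPKM without spelling it out and whose depth is unknown, 50 genes were taken with the largest difference of mean log2(EPKM + 1) between AGO2 with miR-200c-3p (27 embryos) and AGO2 alone (23 embryos), among 1481 genes with a value above 0 in at least 50% of the former. These editing differences ran from 0.42 to 0.92 and were not tested. The spread between embryos was wide, as for Fam166a (mean EPKM 11.4, SD 9.92, with miR-200c-3p and 6.07, SD 6.97, without). Thyn1 had a slightly lower mean EPKM with miR-200c-3p (5.32 against 5.35). Of the 49 genes tested at the mid dose, 36 had a negative log2 fold change, 15 had p under 0.05 on the lower side and 3 on the higher, and the median was -0.33. Among the 15 were members of lists described above, such as the ribosomal proteins Rpl10a, Rps9 and Rps19, and Dppa2. This count is therefore not separate from those of the lists. All 1443 eligible genes tested had a median of -0.07. At p under 0.05, 262 of them were lower and 169 higher, against 9.09% and 7.49% of all genes. Of the 49 with a RefSeq 3' UTR, 3 held a miR-200c-3p site, all of 7 bases, and 0 held an 8mer, while 22.8% of the 1453 eligible genes with a 3' UTR held a site. Zmat5, a zinc-finger protein of the minor spliceosome, was at a median of 34.01 CPM in controls and 15.2 CPM at the mid dose (-1.07 ± 0.44), and the ribosomal protein Rpl10a at 55.6 and 31.2 CPM (-0.74 ± 0.30), neither with a site. Sqle, of cholesterol synthesis, held a 7mer-m8 and had -0.27 ± 0.17.

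Stage was compared by means of embryos that share none with the mid-dose comparison. Between the 22 2-cell and 23 4-cell controls of the miR-465c experiment, edgeR called 5483 of 9396 genes (58.4%), 28.3% higher and 30% lower at the 4-cell stage. All 78 ribosomal proteins were higher at the 4-cell stage (median log2 fold change 2.59), as were 30 of 58 ribosome assembly factors (median 0.63, 0 lower), whereas 48 of 51 maternal transcripts were lower (median -2.78). In these lists the mid-dose medians (-0.69, -0.56 and 0.35) thus lay on the side of the earlier stage. The genes that differ most between the stages did not show this as clearly. Of the 200 with the largest rise to the 4-cell stage, only some were tested at the mid dose. These had 45 positive and 56 negative log2 fold changes, with a median of -0.08. At p under 0.05, 10 of them were lower and 0 higher, against 9.09% and 7.49% of all genes. Among the 10 were the ribosomal proteins Rpl34, Rpl36, Rpl38, Rpl18, Rpl36a and Rpl3. This count is therefore not separate from that of the ribosomal proteins. Of the 200 with the largest fall, 113 were positive, 27 higher and 11 lower at p under 0.05, with a median of 0.13 that became -0.18 for the 100 largest. Mitochondrial ribosomal proteins and oxidative phosphorylation genes, which were higher at the 4-cell stage in 68 of 77 and 69 of 77 genes (medians 1.83 and 1.96), had medians of -0.12 and -0.22 at the mid dose. Of the genes of genome activation, 29 of 41 were lower at the 4-cell stage and 9 higher, and at the mid dose they were divided as given above.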

How the data were processed

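Single-embryo RNA-seq values were expected counts deposited by the authors, who mapped paired-end reads to mm10 with RSEM, per the labels' protocols; its version and annotation are not given in the sources used here. STAR, featureCounts, FastQC, cutadapt, DESeq2 1.48.2 and R 4.5.1 also appear, without a stated role, in the submitters' processing notes. The editing values (EPKM) are a deposited signal of the authors' own normalization, not spelled out; 3 of its columns could not be matched to a labelled sample and stayed out. No read carries a molecular identifier.

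Expected counts were rounded and tested with edgeR 4.0.16 in R 4.3.3: TMM, filterByExpr with the groups, and 1 quasi-likelihood model of control, low-dose and mid-dose embryos (77 in all), and Benjamini-Hochberg adjustment over all genes tested, threshold 0.05. For the test against miR-465c the groups of both experiments entered 1 fit. DESeq2 1.42.0 was the other tool; where it gave no adjusted p, none is counted. CPM values are unnormalized shares of an embryo's total. Tested on simulated counts of 11202 genes for this comparison, edgeR recovered 49 of 100 genes changed 2-fold and 91 of 100 changed 4-fold, with 2 false calls. DESeq2 recovered 57 and 93, with 16 false calls. The genes changed in the simulation averaged at least 10 CPM. Each gene was drawn independently of the others, so shifts shared by many genes were not simulated. No embryos had identical counts, and the highest correlation between any pair was 0.859. Library measures were compared by permutation in Python 3.11.15 with scipy 1.17.1. Sites were matched in RefSeq 3' UTRs (18829 of 23845 gene symbols).

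Genes named in the text were the 12 with the smallest p in each direction with a mean of at least 10 CPM and a count in at least 50% of embryos of the higher group, passing over predicted genes (which held the smallest p), up to 4 members per list, the microRNA machinery, and the ends of the 8mer and editing sets; not all of those the rule picks are printed, and 1 is not reported here. Members and lists were chosen with earlier results of these data known, and ribosomal proteins and maternal transcripts are lists that had already stood out, so their counts are no independent evidence of direction.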

Additional observations from a re-analysis of the deposited data

How the results depend on the processing

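edgeR's count of 0 genes for the mid dose against control stayed at 0 with RLE size factors, with only genes of at least 10 CPM, with only the groups compared, without embryos under 1000000 counts, with counts thinned to 1 total, in embryos numbered 9 to 16 or 17 to 24 alone, and with the share of the 10 most abundant genes as a covariate. It was 411 with DESeq2, 451 with DESeq2 without embryos under 1000000 counts, 134 with DESeq2 without mid-dose replicate 26, 239 with number bands, 1 with number bands and without replicate 26, 1 in numbers 1 to 8 alone, and 1410 with no filter, of which 1170 averaged below 1 CPM. Leaving out each of the 51 embryos in turn gave 0 to 4 calls: 2 without control replicate 23, 4 without mid-dose replicate 9, and 0 otherwise. With the embryo number as a replicate block, over the 20 numbers present in both groups, edgeR called 410 genes, Lin28a among them. Deviations of embryos with equal numbers correlated at -0.0945 to 0.283 (median 0.033, against -0.0016 for other numbers), over 0.1 in 6 of 20 pairs. Closest to their own number were 0 mid-dose embryos. Whether equal numbers share a day is not labelled, and these correlations cannot decide it. Of the 239 calls with bands, 190 were among the 411 of DESeq2, and 147 genes were called by DESeq2, bands and block. Against the low dose DESeq2 called 330 genes, and for the difference from miR-465c 3; the other settings run gave 0, for the low dose the replicate block included.

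Medians of ribosomal proteins, ribosome assembly and maternal transcripts kept their sign in each setting tried. That of 2-cell genes became 0.21 in numbers 9 to 16, and that of the genes falling to the 4-cell stage -0.18 with 100 genes. Among other lists, later lineage genes turned to 0.47 with DESeq2, 0.44 with no filter, 0.58 in numbers 1 to 8 and 0.35 in 17 to 24; in 17 to 24 mRNA decay became -0.0043 and imprinted genes -0.35; with the covariate they became -0.021 and -0.19, and the proteasome 0.0036. Lists with a median near 0 also changed sign in several settings, and examples follow: with the covariate the microRNA machinery became -0.17, published targets 0.012, the stress responses 0.011, the 3 cumulus genes -0.18 and all genes -0.02; the machinery became -0.025 without replicate 26, and interferon genes -0.15 with the block. The difference in total counts, 35814, became -35655 without replicate 26. Tnrc6b became -0.00078 with no filter, -0.034 without replicate 26 and -0.037 with the block, under which Tnrc6a became -0.11, Dicer1 0.018 and Drosha 0.057. These are the 6 reversals among 311 values of 35 named genes. Settings with covariate, single bands or 2 changes were added after seeing the data. The cause of these differences was not tested. Depth limits genes of a few CPM, such as Zeb1.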
